A study of Mus musculus with 9 samples.

Results

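The 51 genes described here run the cell division cycle and copy the DNA: 17 act at the passage from G1 into S phase, 14 in DNA replication and nucleotide supply, and 20 in mitosis. They were chosen by name, and each probe set annotated to 1 of these symbols alone was taken. This gave 120 probe sets for 50 genes, out of 45101 probe sets for 18194 genes on the array: 44 for the 17 G1/S genes, 38 for the 14 replication genes and 38 for 19 mitosis genes. No probe set used here names Ccnb1. Of the 50 genes, 49 exceeded a log2 level of 4 on at least 3 of the 9 arrays and were tested. Tyms, the thymidylate synthase gene, was not tested: it read 5.98, 3.65 and 5.37 on the ES cell arrays and between 3.37 and 3.65 on the other 6.

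RNA was measured on 9 Affymetrix mouse arrays, 3 in each of 3 groups, all from Ainv15 mouse embryonic stem (ES) cells that carry a doxycycline-inducible, V5-tagged Cdx2 construct, so that the controls carry it too. ES cells were collected on day 0 and had been grown with LIF over fibroblasts treated with mitomycin C, which blocks their division. Motor neuron cultures were embryoid bodies collected on day 5, after 1 µM retinoic acid and 0.5 µM of a hedgehog agonist from day 2. The Cdx2 and FGF cultures, also of day 5, had both agents and in addition 2 µg/ml doxycycline on day 3 and 100 ng/ml bFGF; Cdx2, doxycycline and bFGF were given together, so their effects cannot be told apart. The labels' protocol also gives 100 nM of retinoic acid and of hedgehog agonist after the doxycycline step without saying which cultures received these doses, so a difference in them between the day 5 groups cannot be told apart from Cdx2 and bFGF either. The labels do not say that the 3 arrays of a group came from separate cultures, and p-values then measure only the spread between these arrays, which may be technical.

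As background, D cyclins with Cdk4 or Cdk6 phosphorylate the retinoblastoma protein and release E2F factors, which switch on cyclin E and replication genes, while INK4 proteins block Cdk4 and Cdk6. ES cells have a short G1 phase and divide fast. Spinal progenitors also divide, and their daughters leave the cycle for good when they become neurons.

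The pluripotency markers were high in ES cells and all 10 fell in the motor neuron cultures. Of 15 neuron markers, 14 rose in the motor neuron cultures and 14 were lower in the Cdx2 and FGF cultures than there. Their summed level (log2) was 13.83 to 14.15 on the ES arrays, 16.84 to 17.25 on the motor neuron arrays and 13.54 to 13.80 on those with Cdx2 and FGF. The sum leans on the brightest genes, in ES cells Stmn2 at 12.75 to 13.37. The median over the markers was 6.98 to 8.17 on the ES arrays and 8.41 to 9.12 with Cdx2 and FGF. Against ES cells, 8 of the 15 were higher with Cdx2 and FGF and 2 lower, beside 25.4% and 27.2% of all genes. The motor neuron genes Isl1, Mnx1, Lhx3 and Slc18a3 were present in the motor neuron cultures, while Chat was at the lowest value on all 9 arrays. Fibroblast markers had a summed log2 level of 10.54 to 13.47 for ES cells, 7.77 to 7.97 for motor neuron cultures and 10.99 to 11.34 for Cdx2 and FGF, and mesoderm markers stood at 10.15 to 13.96, 5.20 to 6.58 and 14.27 to 14.35. Within groups, arrays correlated at 0.963 to 0.974 over probe sets for ES cells and at 0.995 or higher for the other groups. Control probes for transcript ends set the ES arrays apart: the 3′ minus 5′ log2 difference for Actb was 2.07 ± 0.22 (SD, n = 3) in ES cells, -0.04 ± 0.01 in motor neuron cultures and -0.04 ± 0.05 with Cdx2 and FGF. For Tfrc it was 5.59 to 6.86 on the ES arrays and -1.74 to -1.39 on the 6 arrays of day 5, while for Gapdh, at 0.80 ± 0.22, 0.62 ± 0.03 and 0.52 ± 0.02 in the order used for Actb, ES cells and motor neuron cultures overlapped. The 18S probe at the 3′ end read 6.35 ± 0.43 in ES cells and 15.48 ± 0.03 and 15.38 ± 0.05 in the day 5 groups. Histone genes of the replication-dependent kind, whose mRNAs end without a poly(A) tail, also set them apart: of 7 tested, 5 rose and 1 fell from ES cells to motor neuron cultures, with a median log2 difference of 3.06, and it was -0.04 between the day 5 groups. H1f4, a linker histone, read 5.47, 2.93 and 3.02 for ES cells and 14.36 to 14.53 for all 6 day 5 arrays. These control values move with every comparison against ES cells, and their part in those results was not tested. In these bulk cultures, fewer cells of a type and less RNA per cell cannot be told apart.

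The promoters of the members differ by role in the short motifs they hold. RefSeq windows of 300 bases (GRCm38.p6, 250 bases before to 50 after the start) were found for 42 members, with 47 windows in all. The searched letters were TTCCCGC or TTCGCGC or TTGGCGC or TTGCCGC for E2F sites, TTTGAA or TTCGAA for the cell cycle genes homology region (CHR), and CCAAT for the CCAAT box, each on both strands; an E2F match overlapped a CCAAT match in 2 member windows. CHR letters were in 70.6% of mitosis windows, 11.8% of G1/S windows, 15.4% of replication windows and 19.2% of all 32851 windows. E2F letters were in 69.2% of replication windows, 35.3% of G1/S windows, 17.6% of mitosis windows and 9.57% of all. CCAAT was in 88.2% of mitosis, 76.9% of replication and 52.9% of G1/S windows and in 37.4% of all. A match is a description of the letters and not a bound site.

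Shown first are the 5 mitosis genes that rose with Cdx2 and FGF. Of these, 4 carry a CHR together with a CCAAT box. The pair is in 12 of all 17 mitosis windows (70.6%) and in 7.52% of all windows, so it does not set these genes apart from other mitosis members. Mcm10, the replication gene that rose beside them, and Cdk2, a G1/S gene with 3 E2F matches, are shown for contrast. Each runs 5′ to 3′ in the direction of the gene, with the motif letters in capitals: Bub1 (chr2:127831810-127832109, minus strand), Bub1b (chr2:118597961-118598260, plus strand), Aurka (chr2:172370521-172370820, minus strand), Plk1 (chr7:122159185-122159484, plus strand), Cenpe (chr3:135212313-135212612, plus strand), Mcm10 (chr2:5012742-5013041, minus strand) and Cdk2 (chr10:128705002-128705301, minus strand).
Bub1: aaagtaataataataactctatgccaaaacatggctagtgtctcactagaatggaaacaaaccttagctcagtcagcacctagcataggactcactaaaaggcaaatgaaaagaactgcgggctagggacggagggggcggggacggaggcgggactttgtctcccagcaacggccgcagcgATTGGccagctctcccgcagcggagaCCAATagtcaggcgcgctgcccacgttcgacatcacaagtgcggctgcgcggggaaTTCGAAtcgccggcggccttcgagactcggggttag
Bub1b: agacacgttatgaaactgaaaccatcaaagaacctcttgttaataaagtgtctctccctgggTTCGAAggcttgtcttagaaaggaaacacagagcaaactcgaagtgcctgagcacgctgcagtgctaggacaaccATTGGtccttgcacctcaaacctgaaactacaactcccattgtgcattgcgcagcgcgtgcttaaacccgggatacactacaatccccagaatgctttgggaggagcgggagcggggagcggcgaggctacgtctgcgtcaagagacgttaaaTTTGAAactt
Aurka: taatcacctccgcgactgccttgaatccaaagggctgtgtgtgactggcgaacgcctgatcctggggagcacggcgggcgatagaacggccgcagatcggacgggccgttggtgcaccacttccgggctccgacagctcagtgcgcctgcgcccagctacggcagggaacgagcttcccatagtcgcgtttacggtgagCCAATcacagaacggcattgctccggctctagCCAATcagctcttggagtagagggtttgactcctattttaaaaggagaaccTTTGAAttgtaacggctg
Plk1: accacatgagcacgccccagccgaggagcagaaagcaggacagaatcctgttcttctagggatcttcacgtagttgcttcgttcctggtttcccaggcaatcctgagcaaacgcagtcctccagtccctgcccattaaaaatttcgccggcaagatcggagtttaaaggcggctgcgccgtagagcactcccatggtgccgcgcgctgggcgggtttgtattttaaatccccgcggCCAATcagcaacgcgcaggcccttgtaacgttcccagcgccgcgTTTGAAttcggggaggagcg
Cenpe: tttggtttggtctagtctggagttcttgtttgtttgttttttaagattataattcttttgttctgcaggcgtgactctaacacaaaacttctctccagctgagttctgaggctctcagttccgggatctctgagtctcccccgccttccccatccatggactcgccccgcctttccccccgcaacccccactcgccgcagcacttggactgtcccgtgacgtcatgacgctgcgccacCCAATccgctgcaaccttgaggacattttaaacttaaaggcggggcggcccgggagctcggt
Mcm10: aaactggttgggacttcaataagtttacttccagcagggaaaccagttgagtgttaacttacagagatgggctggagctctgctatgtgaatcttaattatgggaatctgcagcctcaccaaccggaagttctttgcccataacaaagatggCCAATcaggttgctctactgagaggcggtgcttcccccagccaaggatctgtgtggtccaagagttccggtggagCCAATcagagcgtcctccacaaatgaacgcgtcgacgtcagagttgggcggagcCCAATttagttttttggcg
Cdk2: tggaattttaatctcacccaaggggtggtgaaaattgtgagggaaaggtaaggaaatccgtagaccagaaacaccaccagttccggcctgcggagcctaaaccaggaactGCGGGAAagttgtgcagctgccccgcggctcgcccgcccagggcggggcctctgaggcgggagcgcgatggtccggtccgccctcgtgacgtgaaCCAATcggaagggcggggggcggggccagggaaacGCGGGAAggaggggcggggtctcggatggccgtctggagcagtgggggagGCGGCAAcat
The CHR letters begin 15 bases after the start in Bub1, 41 in Bub1b, 33 in Aurka and 31 in Plk1, counting the start as base 1, and Bub1b has a further match 188 bases before it. The Cenpe and Mcm10 windows hold CCAAT letters but neither CHR nor E2F letters. The E2F matches of Cdk2 begin 140 and 10 bases before the start and 41 after it.

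A gene was called changed at a Benjamini-Hochberg adjusted p under 0.05, from limma over 10912 genes, with a log2 difference of at least 1 in size. In motor neuron cultures against ES cells 6 of the 49 members rose and 16 fell; of all genes tested, 25.9% rose and 30.7% fell. With Cdx2 and FGF against motor neuron cultures 8 members rose and 2 fell, beside 11.2% and 8.61% of all genes. With Cdx2 and FGF against ES cells 11 rose and 9 fell, beside 25.4% and 27.2%. The comparisons share arrays, so their values are set side by side only.

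By adjusted p alone, whatever the size, 11 members stood higher in motor neuron cultures than in ES cells and 23 stood lower, beside 34.2% and 39.2% of all genes. With Cdx2 and FGF against motor neuron cultures the counts were 24 and 2, beside 18.5% and 13.5%, and against ES cells 17 and 16, beside 35.0% and 35.7%. The difference was above 0 for 16 of 49 members in motor neuron cultures against ES cells (47.8% of all genes), for 38 with Cdx2 and FGF against motor neuron cultures (53.2%) and for 25 against ES cells (49.6%). The arrays of both groups did not overlap for 32 members in the first comparison, where 73.9% of all genes did not, for 38 in the comparison of the day 5 groups (62.8%) and for 37 with Cdx2 and FGF against ES cells (73.3%). Tested singly, 24 of the members' 98 probe sets rose and 29 fell in motor neuron cultures, beside 31.9% and 28.0% of all probe sets. With Cdx2 and FGF against motor neuron cultures 15 rose and 3 fell, beside 10.9% and 8.55%, and against ES cells 31 rose and 10 fell, beside 31.4% and 24.7%. Against motor neuron cultures, then, more members than the background were higher by adjusted p alone, while against ES cells the members called higher were near or below it. The mean was lowest in the motor neuron cultures for 28 of 49 members (57.1%, beside 36.5% of all genes), and for 12 of 19 mitosis members it was highest with Cdx2 and FGF (63.2%, beside 26.5%).

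**Figure D1:**
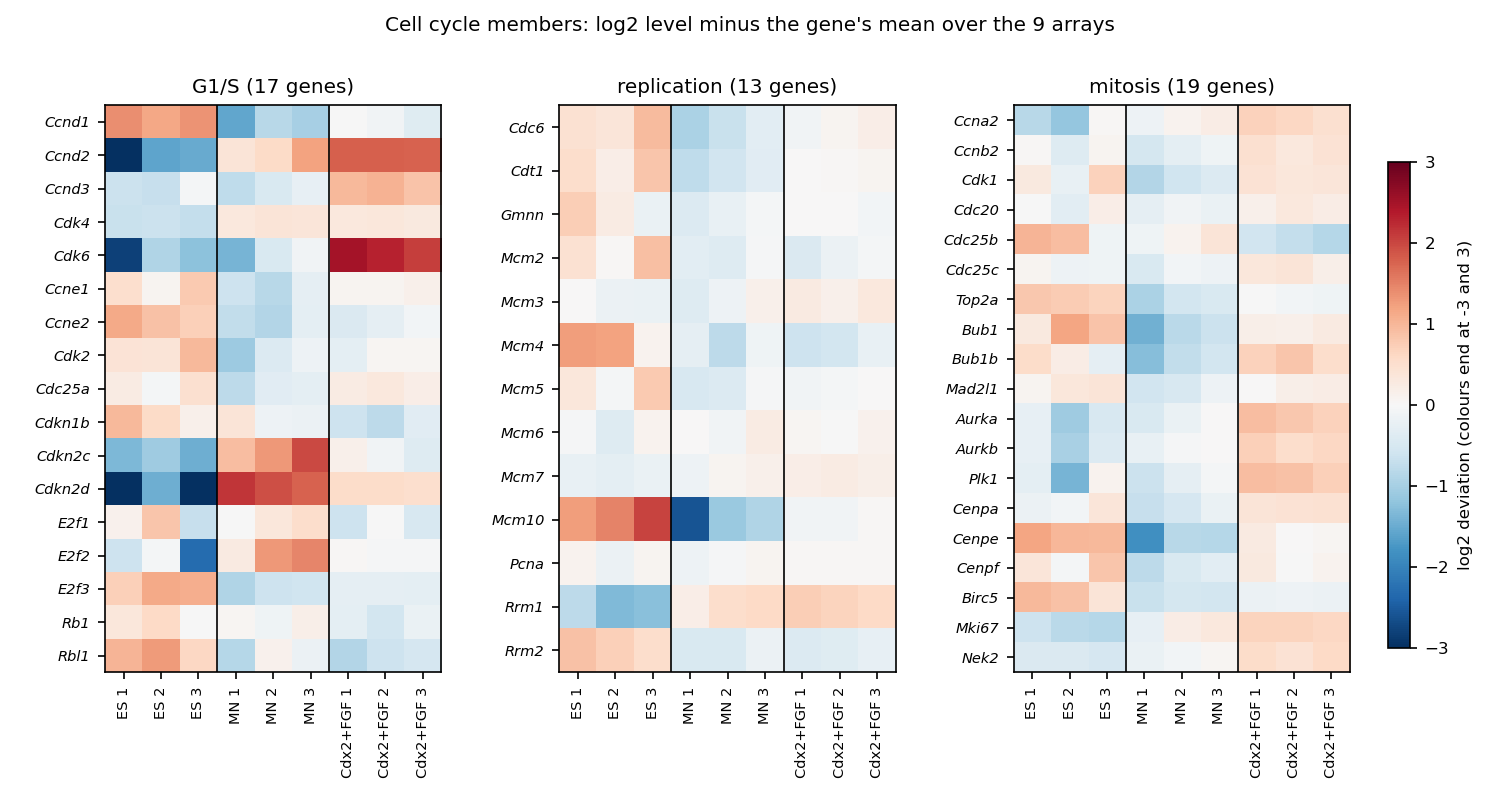
Each row is 1 of the 49 tested members and each column 1 of the 9 arrays; colour gives the log2 level minus the gene's mean over the arrays, and vertical lines part the 3 groups. Mitosis genes are mostly blue on the motor neuron (MN) arrays and red on the Cdx2 and FGF arrays, while G1/S rows run in both directions.

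The D cyclins went in different directions. Ccnd1 (cyclin D1) read 12.39, 12.15 and 12.35 in the ES group, then 9.43, 10.15 and 9.99 in the motor neuron group and 10.97, 10.89 and 10.62 in the Cdx2 and FGF group. It fell in the motor neuron cultures by 2.44 on the log2 scale (SE 0.19, adjusted p = 2.44e-06), and the groups did not overlap. Ccnd2 (cyclin D2) went the other way, from 7.42, 10.25 and 10.32 among ES cells to 12.22, 12.41 and 13.03 in the motor neuron group and 13.63, 13.63 and 13.60 after Cdx2 and FGF. It rose 9.35-fold in the motor neuron cultures (log2 difference 3.22, SE 0.65, adjusted p = 0.00143), with 1 ES array far below the others. Without that array, replicate 1, the log2 difference was 2.27, and its 6 other probe sets were called higher too, at 4.19 to 8.08. Ccnd3 (cyclin D3) read 10.32, 10.26 and 10.89 among ES cells, against 10.19, 10.51 and 10.72 in the motor neuron group and 11.92, 11.99 and 11.80 after Cdx2 and FGF. It rose 2.69-fold with Cdx2 and FGF over motor neuron cultures (1.43, SE 0.20, adjusted p = 0.000509), while ES cells and motor neuron cultures overlapped.

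Of the kinases that D cyclins activate, Cdk6 carried the largest rise of any member with Cdx2 and FGF over motor neuron cultures. Its levels were 4.91, 6.80 and 6.48 in the ES group, then 6.30, 7.24 and 7.60 in the motor neuron group and 10.19, 10.01 and 9.78 in the Cdx2 and FGF group. The rise over motor neuron cultures was 7.72-fold (2.95, SE 0.50, adjusted p = 0.00175), and its other tested probe sets, at 2.95 and 4.59, were called too. Cdk4 stood at 12.88, 12.89 and 12.82 in ES cells and at 13.84 to 13.92 on all 6 arrays of day 5. It rose 2.05-fold in motor neuron cultures (1.03, SE 0.06, adjusted p = 4.08e-07), and the day 5 groups overlapped.

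The INK4 members Cdkn2c and Cdkn2d rose in motor neuron cultures and were lower again with Cdx2 and FGF, while Cdkn2b, an INK4 gene outside the 51, fell in motor neuron cultures. Cdkn2d read 6.19, 7.75 and 6.21 among ES cells, against 11.36, 11.14 and 10.98 in the motor neuron group and 9.76, 9.76 and 9.70 after Cdx2 and FGF. Its rise in motor neuron cultures was 21.8-fold (4.44, SE 0.38, adjusted p = 3.82e-06), and with Cdx2 and FGF it fell by 1.42 (SE 0.38, adjusted p = 0.0178). Leaving out replicate 1 or 2 of the motor neuron group, or any 1 Cdx2 and FGF array, ended the call of that fall, with adjusted p from 0.054 to 0.0729. Its SE pools all 3 groups, whose SDs were 0.90 in ES cells, 0.19 in motor neuron cultures and 0.03 with Cdx2 and FGF. Cdkn2c read 3.50, 3.79 and 3.38 in ES cells, under the level of 4, then 5.78, 6.15 and 6.83, and 5.00, 4.75 and 4.47 with Cdx2 and FGF. It was at least 4.77-fold higher in motor neuron cultures than in ES cells (adjusted p = 2.78e-05) and fell by 1.51 with Cdx2 and FGF (SE 0.30, adjusted p = 0.0045). Cdkn2b read 5.96, 6.79 and 7.41 among ES cells and 2.19 on all 3 motor neuron arrays, at least 6.59-fold lower (adjusted p = 1.55e-06), and it was not called between the day 5 groups (0.44). Cdkn2a, the further INK4 gene, was under 4 on all 9 arrays and not tested. Cdkn1b, an inhibitor of cyclin E with Cdk2, read 11.64, 11.12 and 11.09 in motor neuron cultures and 10.64, 10.47 and 10.91 with Cdx2 and FGF, a difference of -0.62 that did not pass (adjusted p = 0.0734).

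**Figure D2:**
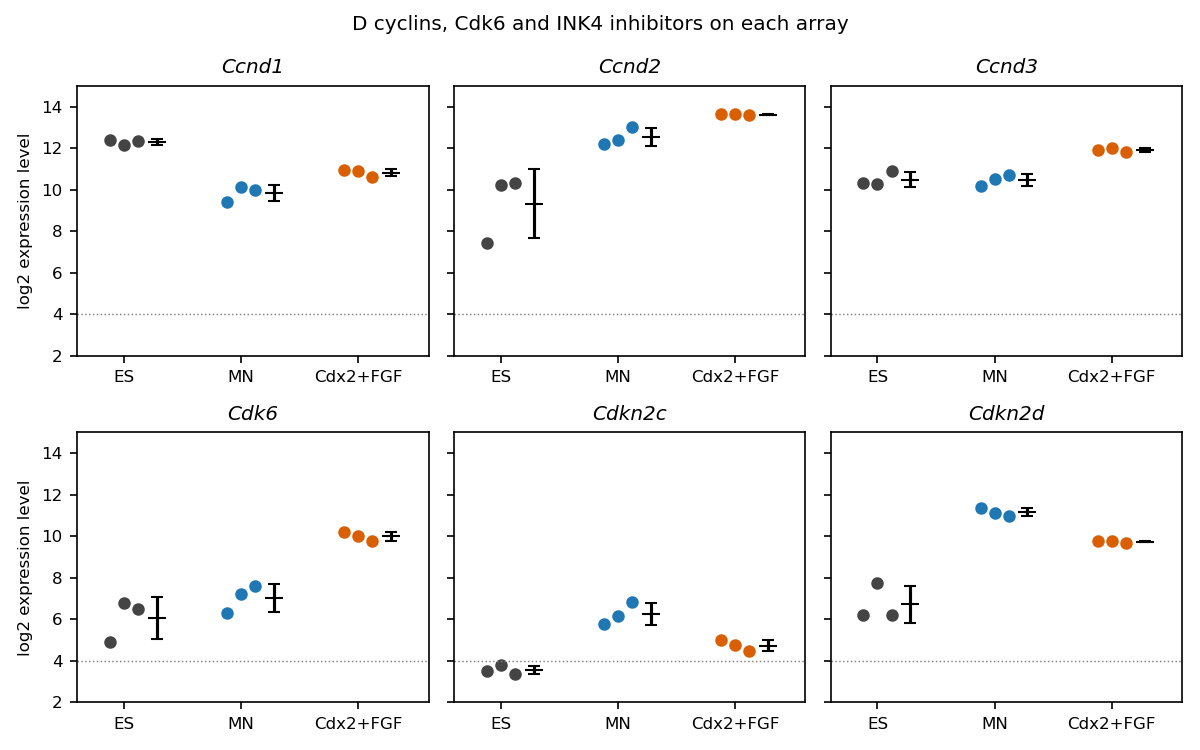
Points are the log2 levels on the 3 arrays of each group, with the mean and SD (n = 3) to their right; the dotted line marks the level of 4. Cdk6 and Ccnd3 stand highest on the Cdx2 and FGF arrays, and Cdkn2c and Cdkn2d on the motor neuron arrays.

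Cyclin E and its partner were lower in motor neuron cultures than in ES cells. Ccne2 read 9.77, 9.51 and 9.35 in the ES group, then 7.90, 7.77 and 8.34 in the motor neuron group and 8.21, 8.38 and 8.55 in the Cdx2 and FGF group, and it fell by 1.54 in motor neuron cultures (SE 0.22, adjusted p = 0.000158). Ccne1 fell by 1.03 there (adjusted p = 0.000825) and Cdk2 by 1.14 (adjusted p = 0.00402). The other tested probe set of Ccne1 was called lower too, at -1.86 (adjusted p = 4.55e-05). With Cdx2 and FGF over motor neuron cultures that probe set was called higher, at 1.00 (adjusted p = 0.00816). On the probe sets that represent them, Ccne1 and Cdk2 both stood near the threshold of size. Centring the arrays gave -0.86 and -0.97, leaving out replicate 3 of the ES group -0.86 and -0.94, leaving out replicate 2 of the motor neuron group -0.90 for Ccne1, and leaving out its replicate 1 -0.87 for Cdk2, none of them called. Cdc25a, the phosphatase that activates Cdk2, differed by -0.70 in motor neuron cultures and by 0.73 with Cdx2 and FGF, sizes under the threshold. Its other tested probe set differed by 0.58 in motor neuron cultures, without a call. That probe set was called higher with Cdx2 and FGF over motor neuron cultures (1.10, adjusted p = 0.0149) and over ES cells (1.69, adjusted p = 0.000416).

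On the probe sets that represent them, E2f2 rose in motor neuron cultures, E2f3 fell and E2f1 was not called, while the other probe set of each was called higher. E2f2 rose by 2.01 (SE 0.54, adjusted p = 0.00759), from 6.51, 7.08 and 4.82 to 7.41, 8.43 and 8.60, or by 1.35 without replicate 3 of the ES group; its other probe set differed by 3.48. E2f3 fell by 1.68 (SE 0.14, adjusted p = 4.15e-06) on the probe set that represents it, and its other probe set differed by 5.03. E2f1 differed by 0.20, with overlapping groups, and by 1.28 on its other probe set. Of the pocket proteins that hold E2F in check, Rbl1 fell by 1.28 (SE 0.29, adjusted p = 0.00275), and Rb1, at a difference of -0.27, overlapped. In all, 5 of 17 G1/S members rose (29.4%) and 6 fell (35.3%) in motor neuron cultures, near the 25.9% and 30.7% of all genes. With Cdx2 and FGF against motor neuron cultures 2 rose and 2 fell (11.8% each), beside 11.2% and 8.61%, and by adjusted p alone 5 were higher and 2 lower, beside 18.5% and 13.5%. Their median log2 difference in motor neuron cultures was -0.27, beside -0.08 for all genes, and it turned to 0.17 when the probe sets of each gene were averaged.

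In DNA replication, Mcm10, Cdc6 and Cdt1 were lower in motor neuron cultures than in ES cells. Mcm10, which helps start the replicative helicase, read 11.39, 11.63 and 12.18 among ES cells, against 7.55, 9.04 and 9.25 in the motor neuron group and 10.04, 10.04 and 10.18 after Cdx2 and FGF. It fell by 3.12 in motor neuron cultures (SE 0.40, adjusted p = 7.34e-05), with 1 of its other probe sets called lower and 1 called higher, and rose 2.77-fold with Cdx2 and FGF over them (1.47, SE 0.40, adjusted p = 0.0205). Without replicate 1 of the motor neuron group, where Mcm10 was lowest, that rise was 0.94 and no longer called. Without any 1 of the Cdx2 and FGF arrays it was not called either, with adjusted p from 0.0587 to 0.0676. Cdc6, which loads the helicase, stood at 11.23 ± 0.32 (SD, n = 3) in the ES group, 10.00 ± 0.32 in the motor neuron group and 10.71 ± 0.16 in the Cdx2 and FGF group. It fell by 1.23 (SE 0.21, adjusted p = 0.000467). Its partner Cdt1 fell by 1.08 (SE 0.16, adjusted p = 0.000175), a call lost without replicate 3 of the ES group (-0.93) or replicate 1 of the motor neuron group (-0.98). Gmnn, the inhibitor of Cdt1, overlapped between all 3 groups.

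The helicase subunits Mcm2 to Mcm7 differed among themselves. Mcm4 fell by 1.25 in motor neuron cultures (SE 0.30, adjusted p = 0.00403). On the probe sets that represent them, the differences of Mcm2, Mcm3, Mcm5, Mcm6 and Mcm7 lay between -0.71 and 0.27, and those with Cdx2 and FGF against motor neuron cultures between -0.01 and 0.38. Other probe sets were called lower in motor neuron cultures for Mcm3, at -1.38 and -1.15, and for Mcm5, at -1.33, so the contrast with Mcm4 depends on the probe set. Between the day 5 groups, other probe sets of Mcm3 differed by 0.97 (adjusted p = 0.00772) and 0.84 (adjusted p = 0.0156), under the size for a call. Mcm4 differed by -0.07 on its representing probe set and by 0.72 (adjusted p = 0.0274) on its other. The remaining tested probe sets of Mcm2 to Mcm7 did not pass the adjusted p there. Pcna, the sliding clamp, was between 13.98 and 14.25 on all 9 arrays, with overlapping groups.

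Of ribonucleotide reductase, which makes the DNA building blocks, the Rrm1 subunit gene rose in motor neuron cultures, and the direction of Rrm2 depended on the probe set. Rrm1 read 11.53, 10.98 and 11.06 among ES cells, against 12.51, 12.84 and 12.90 in the motor neuron group and 13.05, 12.97 and 12.90 after Cdx2 and FGF. It rose 2.95-fold in motor neuron cultures (1.56, SE 0.16, adjusted p = 1.5e-05). Rrm2 fell by 1.07 (SE 0.11, adjusted p = 1.48e-05) on its brightest probe set, or by 0.99, without a call, when replicate 1 of the ES group was left out. Its other probe sets differed by 0.76, which was not called, and 1.68, which was called higher. Of 13 tested replication members, 1 rose (7.69%) and 5 fell (38.5%) in motor neuron cultures (median -0.65), beside 25.9% and 30.7% of all genes. With Cdx2 and FGF over motor neuron cultures 1 rose (7.69%) and 0 fell (median 0.21), beside 11.2% and 8.61%. In limma at adjusted p under 0.05 alone the latter counts were 3 and 0, beside 18.5% and 13.5% of all genes; the 3 became 0 without any 1 of the Cdx2 and FGF arrays and 1 without replicate 1 or replicate 2 of the motor neuron group.

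Many mitosis genes were higher with Cdx2 and FGF than in motor neuron cultures, most by a log2 difference under 1. Of 19 members 5 rose over motor neuron cultures (26.3%) and 0 fell, beside 11.2% and 8.61% of all genes, with a median log2 difference of 0.65 beside 0.04 for all genes. By limma's adjusted p alone 16 were higher and 0 lower, beside 18.5% and 13.5% of all genes. The difference was above 0 for 18 of 19, beside 53.2% of all genes, and for 19 of 19 the groups did not overlap, beside 62.8%. Without replicate 1 of the motor neuron group 10 were higher by adjusted p alone, beside 13.0% of all genes, 18 were still above 0 and the median was 0.54. Neuron markers moved with this result in the opposite direction, 14 of 15 lower. Of 8 neural progenitor markers 7 were below 0 and 1 above (median -0.76), with 2 called lower. Of 13 fibroblast and 7 mesoderm markers with a probe set, 7 and 4 were tested, and 6 and 4 of these were higher. Foxf1 and Meox1 exceeded the level of 4 only on the Cdx2 and FGF arrays, and Syt1 only on the motor neuron arrays. Col1a2, Col3a1 and Pdgfrb also needed the Cdx2 and FGF arrays to be tested, so the filter fixed or favoured these directions. The part of all these markers in the result was not tested.

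The checkpoint genes Bub1 and Bub1b fell in motor neuron cultures and were higher with Cdx2 and FGF. Bub1b, a checkpoint kinase family member, read 11.30, 10.95 and 10.48 in the ES group, then 9.46, 10.00 and 10.19 in the motor neuron group and 11.43, 11.57 and 11.27 in the Cdx2 and FGF group. It rose 2.9-fold with Cdx2 and FGF over motor neuron cultures (1.54, SE 0.24, adjusted p = 0.00116), and its other tested probe set was called too. Its fall in motor neuron cultures was no longer called without replicate 1 of the ES group (-0.83) or of the motor neuron group (-0.82). Bub1, its kinase partner, read 11.53, 12.42 and 12.09, then 9.80, 10.44 and 10.59, then 11.43, 11.39 and 11.51. It fell by 1.73 in motor neuron cultures (SE 0.25, adjusted p = 0.000161) and rose 2.24-fold with Cdx2 and FGF (1.16, SE 0.25, adjusted p = 0.00664), or by 0.92, without a call, when replicate 1 of the motor neuron group was left out. Mad2l1, another checkpoint protein, differed by -0.67 and 0.54, under the threshold of size.

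At the centromere, Cenpe, a motor that pulls chromosomes to the spindle equator, read 10.82, 10.63 and 10.60 among ES cells, against 7.80, 8.81 and 8.78 in the motor neuron group and 9.90, 9.64 and 9.70 after Cdx2 and FGF. It fell by 2.22 (SE 0.26, adjusted p = 4.16e-05) and was 2.44-fold higher with Cdx2 and FGF (1.28, SE 0.26, adjusted p = 0.00516; 0.95 without replicate 1 of the motor neuron group). Its other tested probe set was called in neither comparison, at -0.60 (adjusted p = 0.273) and 0.90 (adjusted p = 0.195). On the representing probe set the 3 groups did not overlap, and the Cdx2 and FGF arrays lay between the others. Cenpa, the centromeric histone variant, was 0.89 higher with Cdx2 and FGF than in motor neuron cultures (adjusted p = 0.00317), under the size for a call. Cenpf was 0.65 higher and did not pass the adjusted p (0.0545).

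The mitotic kinases Aurka and Plk1 had another order, with overlapping ES cell and motor neuron arrays and the Cdx2 and FGF arrays highest. Aurka, which matures the spindle poles, read 11.21, 10.39 and 10.97 in the ES group, then 10.99, 11.26 and 11.45 in the motor neuron group and 12.38, 12.25 and 12.13 in the Cdx2 and FGF group. It rose 2.02-fold over motor neuron cultures (1.02, SE 0.21, adjusted p = 0.00508), and this was 0.90 without replicate 1 of the motor neuron group and 0.95 without replicate 1 of the Cdx2 and FGF group. Plk1 read 10.24, 9.14 and 10.64, then 9.88, 10.27 and 10.48, then 11.45, 11.42 and 11.25. It rose 2.24-fold (1.16, SE 0.34, adjusted p = 0.0262), and leaving out any day 5 array but replicate 3 of the motor neuron group ended the call, with adjusted p from 0.0615 to 0.107. The SE of Plk1 pools all 3 groups, whose SDs were 0.78 in ES cells, 0.30 in motor neuron cultures and 0.10 with Cdx2 and FGF. Cdk1, the kinase that drives entry into mitosis, differed by 1.00 (SE 0.21, adjusted p = 0.00524), just short of the size for a call. Against ES cells, 5 of 19 mitosis members rose with Cdx2 and FGF (26.3%) and 1 fell (5.26%), beside 25.4% and 27.2% of all genes. Aurkb, Plk1, Aurka, Ccna2 and Mki67 rose, by 1.16 to 1.41, and Cdc25b fell by 1.33 (SE 0.30, adjusted p = 0.00286). Without replicate 2 of the ES group the rise was 0.95 for Aurkb, 0.94 for Plk1 and 0.99 for Ccna2, short of a call. The other probe set of Ccna2 differed by -0.29 from ES cells, without a call. Averaging the probe sets of each gene ended the calls of Ccna2 and Aurka against ES cells. For Aurka the average took in a probe set that read 2.19 to 2.23 on all 9 arrays and was too low to be tested.

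Top2a and Birc5 fell in motor neuron cultures without a called rise with Cdx2 and FGF. Top2a, which untangles DNA, read 13.46, 13.40 and 13.31 among ES cells, against 11.69, 12.09 and 12.18 in the motor neuron group and 12.63, 12.56 and 12.51 after Cdx2 and FGF. It fell by 1.40 in motor neuron cultures (SE 0.13, adjusted p = 5.83e-06). Birc5 (survivin) fell by 1.33 (SE 0.14, adjusted p = 1.52e-05). Mki67, the proliferation marker, was not called in motor neuron cultures (0.85); it read 11.93, 11.74 and 11.70 in the ES group, then 12.29, 12.77 and 12.87 in the motor neuron group and 13.22, 13.21 and 13.17 in the Cdx2 and FGF group. Cdc25b was the mitosis member below 0 with Cdx2 and FGF against motor neuron cultures, at -0.84 (adjusted p = 0.0589).

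**Figure D3:**
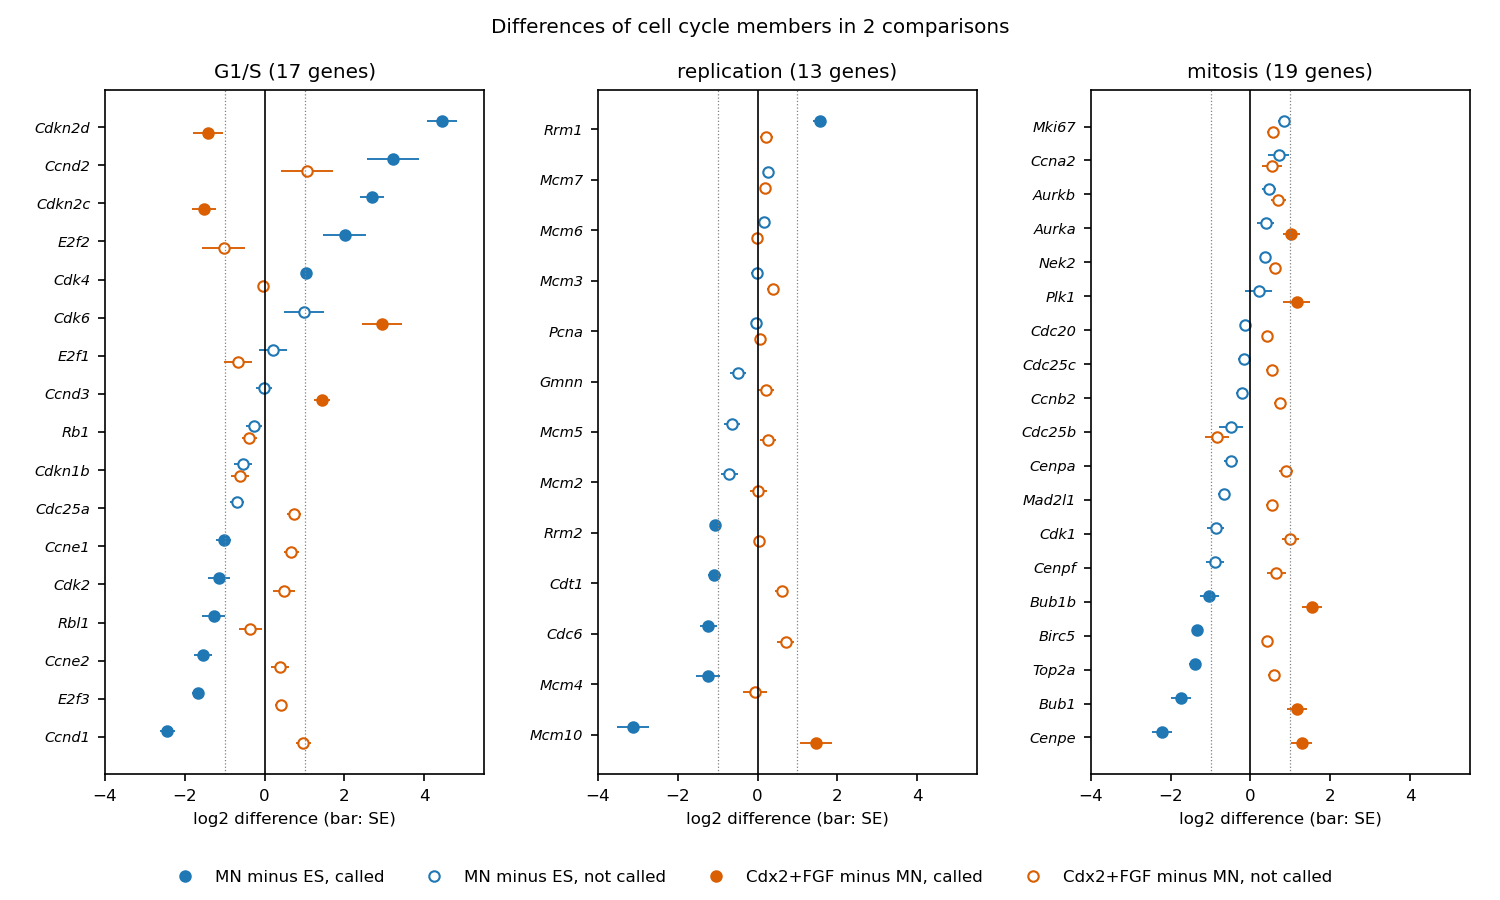
Log2 differences with their SE for the 49 tested members, motor neuron cultures minus ES cells in blue and Cdx2 and FGF minus motor neuron cultures in orange; filled points were called. In the mitosis panel 18 of 19 orange points lie above 0.

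The 3 arrays of the motor neuron group were not alike for these genes. Replicate 1 was the lowest of the 3 for 41 of 49 members (83.7%, beside 48.1% of all genes) and for 19 of 19 mitosis members, and it was the highest for 15 of 15 neuron markers. Without it, 3 members (Ccnd3, Cdk6 and Bub1b) in place of 8 rose with Cdx2 and FGF, and 1 (Cdkn2c) in place of 2 fell. Without replicate 1 of the Cdx2 and FGF group 5 rose and 1 fell. All genes lost calls too: by adjusted p alone, 18.5% of them were higher in this comparison with all 9 arrays. That share was 13.0% without replicate 1 of the motor neuron group and 13.4% without replicate 1 of the Cdx2 and FGF group. Whether the neuron markers bear on the members' spread was not tested.

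**Figure D4:**
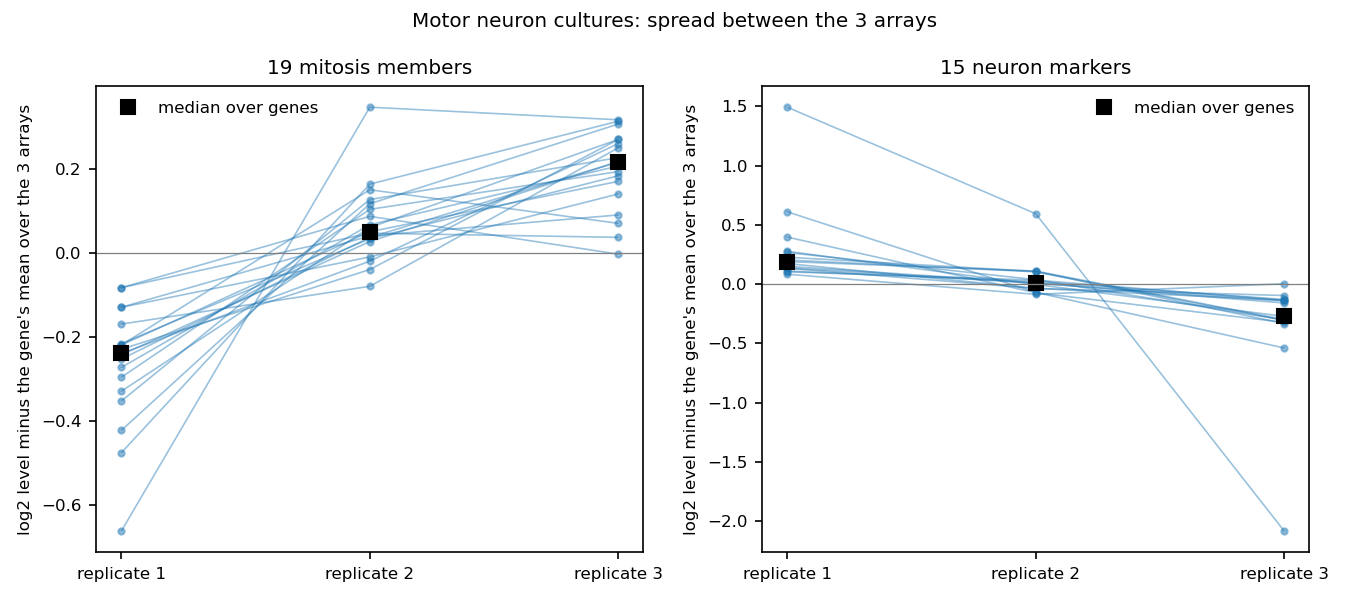
Each line is 1 gene over the 3 motor neuron arrays, as its log2 level minus its mean over them, for 19 mitosis members on the left and 15 neuron markers on the right; squares are medians, the vertical scales differ and the replicates have no order. Replicate 1 is lowest for every mitosis member and highest for every neuron marker.

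Probe sets of 1 gene did not always move alike in the comparisons with ES cells. Among members with several tested probe sets, 23 had a call in motor neuron cultures against ES cells, and 4 of these (17.4%) had calls in both directions, beside 18% of all such genes. These were Cenpa, E2f3, Mcm10 and Rrm2; against ES cells with Cdx2 and FGF they were Cdkn1b, E2f3, Mcm10 and Rrm2. Between the day 5 groups 0 of 8 members did so, beside 0.606% of all genes. For E2f3 the probe sets differed by -1.68 and 5.03, and for Mcm10 by -3.12, -2.84 and 2.82. For Rrm2 they differed by -1.07, 0.76 and 1.68, so the direction of these genes against ES cells depends on the probe set.

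**Figure D5:**
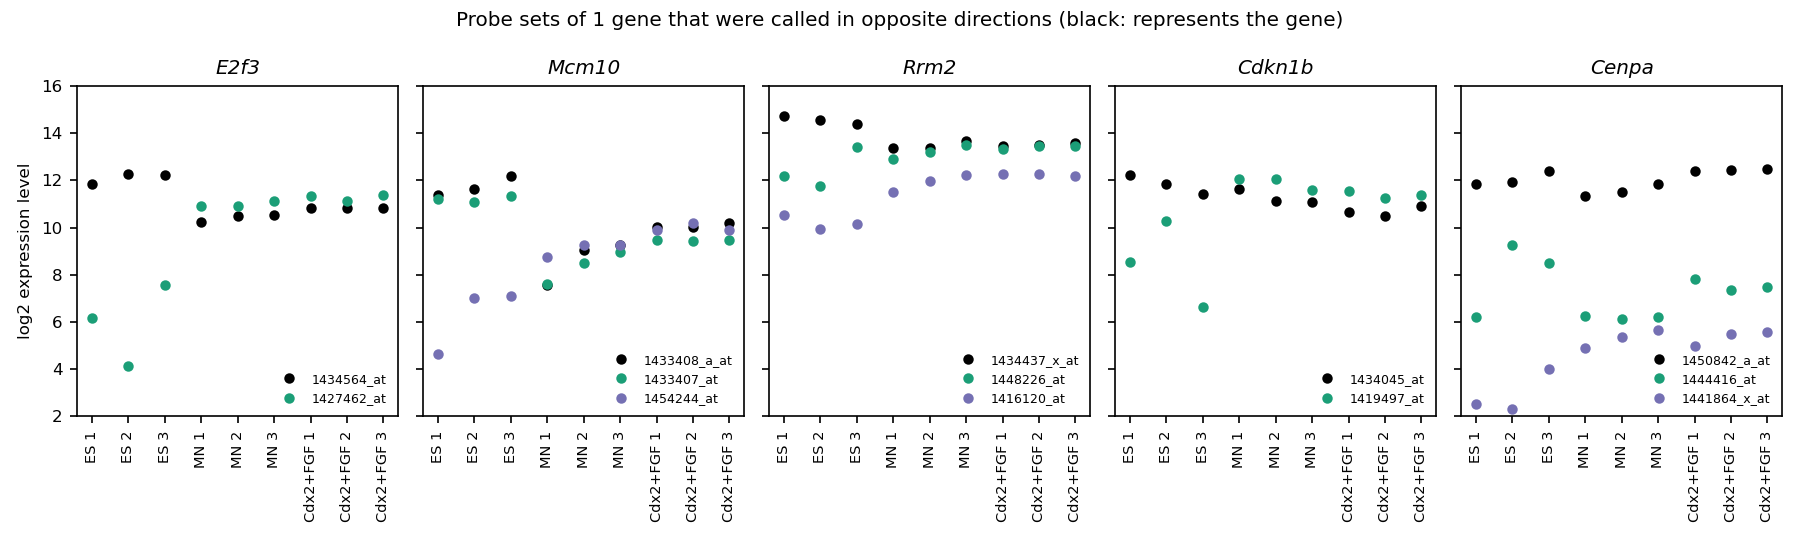
Log2 levels of the tested probe sets of 5 genes on the 9 arrays; black points are the probe set that represents the gene. From ES to motor neuron arrays the coloured E2f3 probe set changes by 5.03 and the black one by -1.68, and the coloured Cdkn1b probe set by 3.43 and the black one by -0.54; levels of different probe sets are not comparable.

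Further genes of the same pathways, outside the 51, were counted in lists that were also chosen with results known. The shares of all genes were 25.9% rising and 30.7% falling in motor neuron cultures, and 11.2% and 8.61% with Cdx2 and FGF against them (18.5% and 13.5% by adjusted p alone). Of 40 further replication genes 2 rose and 20 fell in motor neuron cultures, and 1 rose and 0 fell with Cdx2 and FGF over them (12 and 0 by limma's adjusted p alone). Orc1, of the origin recognition complex, fell by 4.57 and rose by 2.70 (adjusted p = 0.0147), with motor neuron arrays at 4.08, 5.69 and 7.37. Without replicate 1 or replicate 3 of that group the differences were -3.75 or -5.39 from ES cells and 1.88 or 3.53 with Cdx2 and FGF, and without replicate 2 of the Cdx2 and FGF group the rise was not called (adjusted p = 0.0573). Of 60 further mitosis genes 3 rose and 28 fell in motor neuron cultures, and 8 rose (13.3%, near the share of all genes) and 0 fell with Cdx2 and FGF (31 and 0 by adjusted p alone). Anln, a ring protein of cell division, rose by 1.53 there (SE 0.19, adjusted p = 0.000224).

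Of 19 further G1/S genes 2 rose and 8 fell in motor neuron cultures and 4 rose and 0 fell with Cdx2 and FGF (9 and 1 by adjusted p alone). Mybl2, the transcription factor B-Myb, read 12.78, 12.74 and 13.00 among ES cells, against 6.90, 7.99 and 8.25 in the motor neuron group, a fall by 5.12 (adjusted p = 5.02e-07). Myc read 7.93, 8.09 and 8.12 in the motor neuron group and 10.49, 10.46 and 10.19 with Cdx2 and FGF. This was a rise by 2.33 (SE 0.65, adjusted p = 0.0219). The SE pools the spread of all 3 groups, and the ES arrays, at 6.37, 7.42 and 9.60, spread most. The call was lost without any 1 of the 6 day 5 arrays, with adjusted p from 0.0553 to 0.0758. Of 11 inhibitors and exit genes 5 rose and 2 fell in motor neuron cultures, and 0 rose and 1 fell with Cdx2 and FGF. Cdkn1c, an inhibitor of cyclin-dependent kinases, rose in motor neuron cultures by 5.80 (SE 0.89, adjusted p = 0.00024), from 6.12, 4.32 and 8.95 in the ES group to 12.42, 12.25 and 12.13; without replicate 2 or replicate 3 of the ES group the difference was 4.73 or 7.04. It stood at 13.53, 13.58 and 13.39 with Cdx2 and FGF. Insm1, expressed by cells leaving the cycle as neurons, rose by 3.36 and then fell by 3.61 (SE 0.34, adjusted p = 4.55e-05).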

How the data were processed

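The log2 expression values were deposited by the authors as 1 table of 45101 probe sets on 9 arrays; per the submitters' processing notes, the tools were GCRMA and limma, whose versions and settings are not given in the sources used here. That the values are log2 follows from their range. RNA was amplified with a NuGEN Ovation kit, per the labels. Probe sets were named from the platform annotation: 34958 name 1 gene, 932 several (not used) and 9211 none here.

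Each gene was represented by its probe set with the highest mean over all arrays. Genes over 4 on at least 3 arrays (10912) were fitted with limma 3.58.1 in R 4.3.3 (lmFit, then eBayes with an intensity trend) over all 3 groups, with Benjamini-Hochberg adjustment over all genes tested. A call needed an adjusted p under 0.05 and a log2 difference of at least 1 in size. Probe sets were also fitted singly (21557 tested). The scripts were tested on simulated data. With 3 arrays in each group, their number limits the precision, and a single value compared by exact permutation cannot go below p = 0.1.

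The members and lists were chosen with earlier results of these data known. Members were described by role and call; of the further lists, named genes come from the 2 largest called rises and falls in each list and comparison. Same-numbered arrays did not deviate together (correlations from -0.0257 to 0.0769), so no pairing was used. Alternatives covered probe set choice, filters, floor, scaling, variance prior, array weights, the arrays fitted and the threshold.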

Additional observations from a re-analysis of the deposited data

How the results depend on the processing

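The fit with the replicate number as a block (replicate block) gave the reported counts, 6 higher and 16 lower, 8 and 2, and 11 and 9, and changed no call. Of 52 called member results 22 held under every alternative in which the gene was tested, and 30 were lost under some. For motor neuron cultures against ES cells 13 of 22 held. For Cdx2 and FGF 2 of 10 (Cdk6 and Cdkn2c) held against motor neuron cultures, and 7 of 20 against ES cells. Cdkn2c was not tested with a filter at 6, so its results ran over 21 alternatives, where those of Cdk6 ran over 22. Averaging the probe sets gave 8 members lower in motor neuron cultures in place of 16, 5 higher with Cdx2 and FGF over them in place of 8, and 3 lower against ES cells in place of 9. These averages took in every probe set of a gene, also those under 4 on all arrays. By adjusted p alone the counts were 11 higher in motor neuron cultures, 24 higher with Cdx2 and FGF over them, and 17 higher and 16 lower with Cdx2 and FGF against ES cells. With no filter, and with a filter at 6, 1 member in place of 2 was lower with Cdx2 and FGF than in motor neuron cultures. Cdkn2d lost its call with no filter, and Cdkn2c was not tested with the filter at 6. Leaving out 1 array at a time gave 3 to 11 members higher and 1 to 3 lower in that comparison, 6 to 8 and 13 to 18 in motor neuron cultures, and 10 to 12 and 7 to 10 with Cdx2 and FGF against ES cells; leaving out replicate 1 of the motor neuron group was added, for the mitosis count by adjusted p alone, after seeing the data, as was leaving out each array for the named genes of the further lists. Centring the arrays moved the median of all genes by 0.165 in motor neuron cultures and by 0.102 with Cdx2 and FGF against ES cells; the members' median in motor neuron cultures was then -0.33 in place of -0.49. The cause of these changes was not tested. After a further quantile normalization, the differences that changed sign were, for motor neuron cultures against ES cells Ccnd3 0.19, Mcm3 0.13, Cdc20 0.00 and Cdc25c 0.05. Also under it, for Cdx2 and FGF against motor neuron cultures Rrm2 -0.02. In addition, for Cdx2 and FGF against ES cells Mad2l1 0.00. With centred arrays, the differences that changed sign were, for motor neuron cultures against ES cells Ccnd3 0.15, Mcm3 0.14, Pcna 0.12 and Cdc20 0.02. Also under it, for Cdx2 and FGF against motor neuron cultures Mcm2 -0.04 and Rrm2 -0.04. With array weights, the differences that changed sign were, for motor neuron cultures against ES cells Ccnd3 0.10. Also under it, for Cdx2 and FGF against motor neuron cultures Mcm4 0.07 and Mcm6 0.04. With the mean of all probe sets, the differences that changed sign were, for motor neuron cultures against ES cells Cdkn1b 1.45, E2f3 1.68, Rb1 0.17, Mcm6 -0.25, Rrm2 0.45, Ccna2 -0.07 and Cenpa 0.03. Also under it, for Cdx2 and FGF against motor neuron cultures Rbl1 0.14, Mcm4 0.33 and Mcm6 0.12. In addition, for Cdx2 and FGF against ES cells Cdkn1b 0.88, E2f3 2.03, Rb1 0.09, Mcm6 -0.13, Mcm10 0.12, Rrm2 0.65 and Cenpf 0.54. Without x_at and s_at probe sets, the differences that changed sign were, for motor neuron cultures against ES cells Mcm6 -0.70, Mcm7 -0.01 and Rrm2 0.76. Also under it, for Cdx2 and FGF against motor neuron cultures Mcm4 0.72 and Mcm6 0.37. In addition, for Cdx2 and FGF against ES cells Mcm3 -0.41, Mcm6 -0.33, Rrm2 0.96 and Cdc25c -0.12. Leaving out 1 array at a time, differences that changed sign ran as follows for motor neuron cultures against ES cells: Ccnd3 -0.14 to 0.18, E2f1 -0.20 to 0.57, Mcm3 -0.16 to 0.11, Pcna -0.13 to 0.02 and Plk1 -0.23 to 0.52. For Cdx2 and FGF against motor neuron cultures they ran Mcm2 -0.07 to 0.13, Mcm4 -0.27 to 0.07, Mcm6 -0.08 to 0.09 and Rrm2 -0.02 to 0.12. For Cdx2 and FGF against ES cells they ran Cdc25a -0.11 to 0.16, Pcna -0.07 to 0.07 and Cdk1 -0.11 to 0.34.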
